A study of Mus musculus with 8 samples.

Results

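The genes described here are 7 neighbours from an imprinted stretch of mouse chromosome 7: Snhg14, Ube3a, Snrpn, Ndn, Magel2, Mkrn3 and Peg12. It is the mouse counterpart of the human Prader-Willi and Angelman region. They were taken by symbol from tables that list 55213 gene symbols, and all 7 were among the 26900 that reached a total of 10 counts and were tested. The set was chosen by the diet difference itself, since Snhg14 had a small p-value in an earlier comparison of the diets in the same libraries, and the other 6 are its neighbours. Diet differences of the 7 genes are therefore given as a description, with no test.

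RNA of whole retinas was sequenced from 4 germ-free mice on a normal diet (GF-ND, mice 9, 10, 11 and 12) and 4 germ-free mice on a high-fat diet (GF-HFD, mice 13, 15, 16 and 19). All were male C57B1/6 mice raised without microbes and their labels name no transgene or deletion. Both diets were given for 8 weeks, from 7 to 15 weeks of age, and the HFD held 23% saturated fat. The comparison asked how the HFD bears on the retina when no gut microbiota is present, so every mouse of both groups lacked microbes and no colonised mouse was compared. Each library came from 1 retina of a different mouse.

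In an imprinted stretch, a gene is transcribed from the copy of 1 parent only. Snrpn, Ndn, Magel2, Mkrn3, Peg12 and the long noncoding transcript Snhg14 are known to come from the paternal chromosome, where Snhg14 runs across a large array of small nucleolar RNAs (snoRNAs) and on into Ube3a from the opposite strand. In neurons this antisense transcript silences the paternal Ube3a, so that the ubiquitin ligase is made from the maternal copy, while other cell types use both copies. Loss of the paternal genes is known to cause Prader-Willi syndrome in humans, and loss of neuronal UBE3A causes Angelman syndrome. Counts per gene do not tell the parental copies apart.

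In GENCODE vM21 on GRCm38, Ube3a lay at chr7:59228750-59311536 on the plus strand. Snhg14 lay at chr7:59307924-59975759 on the minus strand, so that its last exons faced the end of Ube3a. Snrpn followed at chr7:59982495-60140219 on the minus strand. The remaining genes were compact and lay further along, with Ndn at chr7:62346569-62350262 and Magel2 at chr7:62377010-62381640 on the plus strand. Mkrn3 at chr7:62417593-62420139 and Peg12 at chr7:62461871-62464510 were on the minus strand. RefSeq drew Snhg14 longer, to chr7:59272737-60450177, with a start shared with Snrpn.

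Promoter windows of 300 bases (250 before and 50 after each start) were taken from RefSeq for GRCm38.p6, where all 7 genes had at least 1 window. The 3 windows printed here are those in which the neighbours of the results meet: the start of Ube3a (chr7:59228500-59228799, plus strand), the start of Snrpn that it shares with Snurf (chr7:60005150-60005449, minus strand), and the far start that RefSeq gives to both Snhg14 and Snrpn (chr7:60450128-60450427, minus strand). Capitals mark the letters GCATGCG on either strand, which here overlap into one run. These letters are the core of the motif bound by the activator NRF1.
Ube3a: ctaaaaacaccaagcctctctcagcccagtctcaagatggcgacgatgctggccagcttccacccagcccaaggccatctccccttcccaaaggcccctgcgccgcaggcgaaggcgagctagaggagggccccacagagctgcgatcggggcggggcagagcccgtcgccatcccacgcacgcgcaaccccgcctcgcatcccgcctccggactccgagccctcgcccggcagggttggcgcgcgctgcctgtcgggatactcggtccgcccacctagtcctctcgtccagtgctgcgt
Snrpn and Snurf: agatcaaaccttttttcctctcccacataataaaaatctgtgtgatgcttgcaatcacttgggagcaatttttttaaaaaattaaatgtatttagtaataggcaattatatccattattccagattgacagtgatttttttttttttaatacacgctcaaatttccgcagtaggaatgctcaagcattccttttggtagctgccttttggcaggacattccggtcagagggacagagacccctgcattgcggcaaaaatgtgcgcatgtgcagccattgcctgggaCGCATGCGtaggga
Snhg14 and Snrpn: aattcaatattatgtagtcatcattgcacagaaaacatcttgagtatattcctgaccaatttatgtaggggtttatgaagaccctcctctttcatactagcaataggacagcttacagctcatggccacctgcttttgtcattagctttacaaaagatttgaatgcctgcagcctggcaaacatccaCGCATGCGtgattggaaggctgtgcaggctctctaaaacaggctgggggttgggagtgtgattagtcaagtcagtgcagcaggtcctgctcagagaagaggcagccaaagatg

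The windows differed in base composition. That of Ube3a held 29 CpG dinucleotides and 69.0% G and C, and had no GCATGCG. The Snrpn window held 7 CpG and the window shared by Snhg14 and Snrpn 2, against a median of 7 over all 32851 windows. GCATGCG occurred in 5 of the 9 distinct windows of the 7 genes, namely the 4 of Snrpn (one of them shared with Snhg14) and that of Ndn. These windows belong to 3 of the 7 genes. The Snrpn windows that begin at 60047929, 60140176 and 60450128 share long runs of sequence around the motif, so their matches are not independent. Over all windows it occurred in 3.58%. The motif was chosen after the sequences were seen and a match says nothing of binding.

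Snhg14 is the host of the snoRNA array, so the array bears on how its counts were read. The annotation placed 210 snoRNA genes in the stretch, with 87 distinct sequences. Capitals mark the 18-base element known from the Snord115 snoRNAs, which pairs with the transcript of the serotonin receptor 2C, and which 105 of the 210 genes held. Gm24866 stands for 33 genes with one identical sequence, Gm24966 is the copy with the most counts and has a sequence of its own, and Snord116l1 stands for 30 identical genes of the second array.
Gm24866: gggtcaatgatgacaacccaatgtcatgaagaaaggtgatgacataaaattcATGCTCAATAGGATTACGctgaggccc
Gm24966: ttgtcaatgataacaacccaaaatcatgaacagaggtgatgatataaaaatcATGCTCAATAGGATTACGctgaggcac
Snord116l1: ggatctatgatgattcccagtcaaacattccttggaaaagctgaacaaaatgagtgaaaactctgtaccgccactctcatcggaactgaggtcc

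Gm24966 differed from Gm24866 at 10 bases, all outside the element. Reads that match several copies equally well cannot be given to one, and libraries of this kind capture few RNAs as short as these. Of the 210 snoRNA genes, 192 had 0 counts in every library and 18 had a count, with 153 counts in all. A count was seen for 5 of the 147 genes whose sequence is shared with another copy and for 13 of the 63 with a sequence of their own. Gm24966 held 89 of the counts, with 15, 13, 10 and 17 in GF-ND mice 9, 10, 11 and 12 and 11, 11, 6 and 6 in GF-HFD mice 13, 15, 16 and 19. The groups overlapped. The level of the mature snoRNAs was thus not measured by these libraries, and 0 counts do not show that they are absent.

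Levels are given as CPM, counts relative to a library size scaled for composition, and a negative log2 fold change means a lower level in GF-HFD, from a fit over all genes tested. Library totals ran from 39258006 to 44357518 counts. Lens genes took 7.55% of the counts of GF-ND mouse 11 and 1.39% of those of GF-HFD mouse 19, against 0.0222% to 0.197% in the other 6 libraries. Rod markers were at 10 CPM or more for 14 of 14 genes, as the retina label implies, and no gene was at 0 among them. Genes of the red blood cell had a mean log2 CPM of -0.92 to -0.49 in GF-ND and of -0.13 to 1.11 in GF-HFD, with 5 of 7 tested genes higher at an unadjusted p under 0.05 and none at 10 CPM. No gene passed an adjusted p under 0.05 in edgeR (0 of 26900, or 0.0%). At an unadjusted p under 0.05 there were 1985 genes (7.38%), with 1219 lower (4.53%) and 766 higher (2.85%). Without GF-ND mouse 11, 421 genes passed the adjusted threshold.

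Markers of other cells moved with the diet groups or with single mice. Of the tested genes of each list, those at an unadjusted p under 0.05 were 2 of 10 for microglia, 3 of 10 for fibroblasts, 3 of 10 for skeletal muscle, 2 of 8 for endothelium and 1 of 11 for Mueller glia and astrocytes, all higher. They were 0 of 12 for ciliary body, iris and pigment epithelium and 2 of 21 for the lens, both lower. Over all genes 2.85% were higher and 4.53% lower at that p. Skeletal muscle genes had a mean log2 CPM of 1.73 in GF-HFD mouse 13, with GF-ND mouse 9 next at -0.54. The part of the listed cell types in the values that follow was not tested.

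Snhg14 was lower in the GF-HFD retinas. Its level was 84.0, 102, 81.9 and 87.8 CPM in GF-ND mice 9, 10, 11 and 12, and 65.7, 61.0, 60.2 and 57.2 CPM in GF-HFD mice 13, 15, 16 and 19. Every GF-HFD retina was below every GF-ND retina, with mouse 10 the highest and mouse 19 the lowest. Mean CPM was 88.9 ± 9.01 against 61.0 ± 3.51 (SD, 4 mice in each group), and the log2 fold change -0.54 (SE 0.09). The counts behind them were 3439 to 4140 and 2419 to 2751, so Snhg14 was not near the limit of detection. In whole retina, fewer cells that make a transcript and less RNA per cell cannot be told apart.

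Ube3a, the ubiquitin ligase that Snhg14 overlaps from the other strand, had no such gap. It measured 139, 128, 154 and 141 CPM in the GF-ND mice and 148, 146, 136 and 145 CPM in the GF-HFD mice, in the same order of mice as above. The groups overlapped throughout, and the lowest and the highest retina were both GF-ND (mice 10 and 11). Mean CPM was 141 ± 10.8 in GF-ND and 144 ± 5.61 in GF-HFD (SD, n = 4), with a log2 fold change of 0.03 (SE 0.08).

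Within each library, the ratio of Snhg14 to Ube3a counts needs no scaling. It was 0.603, 0.799, 0.532 and 0.621 in GF-ND mice 9, 10, 11 and 12 and 0.443, 0.417, 0.444 and 0.394 in GF-HFD mice 13, 15, 16 and 19. The groups did not overlap, and the lowest GF-ND ratio belonged to mouse 11, the library with the most lens RNA. The ratio contains the Snhg14 difference that chose the set, so nothing further is read from this gap. The annotation of the pair limits how far the ratio separates them. Exons of Snhg14 and Ube3a share 1803 bases on opposite strands, which is 6.91% of the exon bases of Snhg14 and 8.74% of those of Ube3a, and the strand setting of the counting was not given in the sources used here.

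Snrpn encodes SmN, a core protein of the spliceosome made mainly in neurons. Its level was 114, 101.03, 126 and 97.6 CPM in the GF-ND mice and 105, 121, 111 and 113 CPM in the GF-HFD mice. The groups overlapped, and GF-ND again held both the lowest and the highest retina. Its log2 fold change came to 0.04 (SE 0.10). Snurf, which shares the Snrpn transcript and 216 of its exon bases, had 0 counts in every library, and 34.1% of Snrpn exon bases lie in exons of other genes as well. A 0 for a gene model that overlaps another says nothing of its expression.

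Gm38393, a gene model labelled protein-coding, shares 589 exon bases with Snrpn and 27 with the first exons of Snhg14, all on the same strand. It measured 38.1 to 40.0 CPM in the 4 GF-ND mice and 33.9, 28.4, 27.3 and 27.7 CPM in GF-HFD mice 13, 15, 16 and 19. The groups did not overlap, and the GF-ND values lay close together. Its log2 fold change was -0.41 (SE 0.09), with an adjusted p of 0.649 in edgeR over all genes tested. Its ratio to Snrpn counts was 0.351, 0.377, 0.309 and 0.399 in GF-ND and 0.321, 0.234, 0.246 and 0.246 in GF-HFD, which overlapped through mice 11 and 13.

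**Figure D1:**
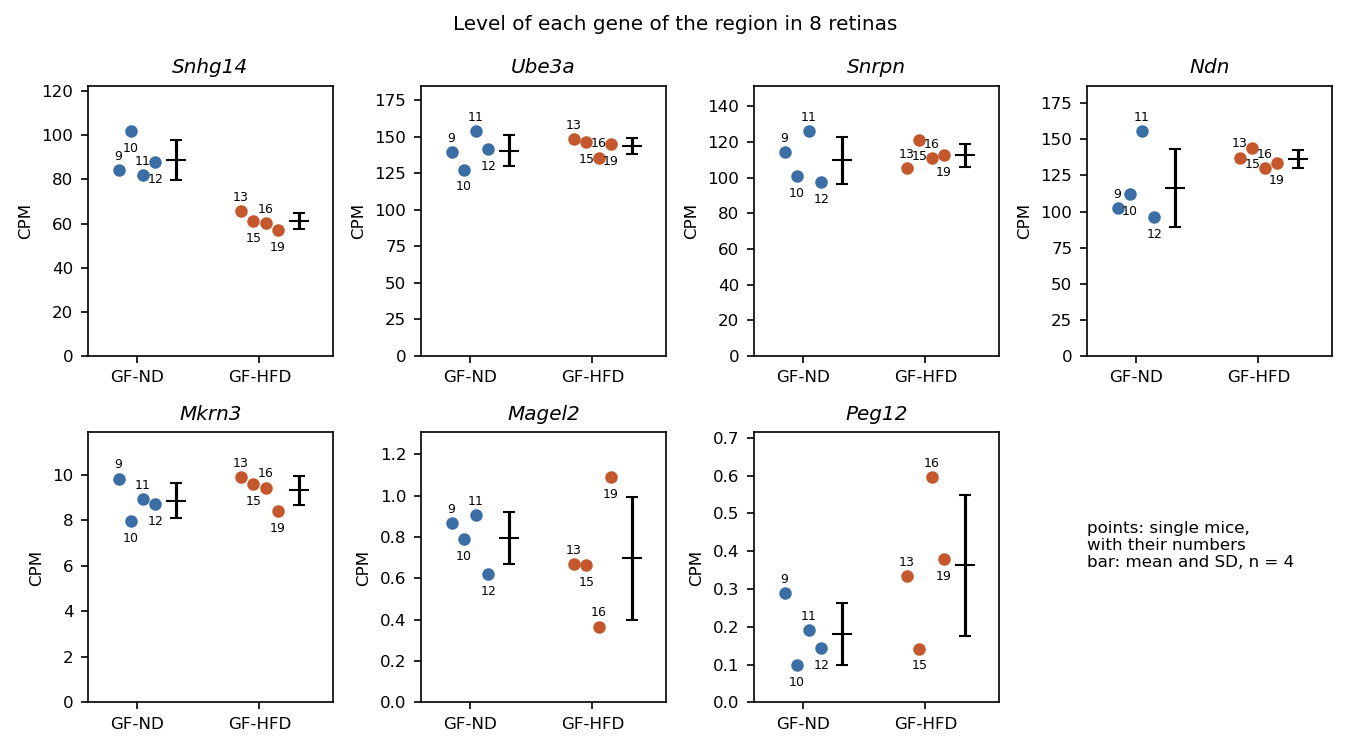
Level of the 7 imprinted genes in CPM (y axis, from 0) in GF-ND and GF-HFD retinas, with 1 point for each mouse, its number beside it, and the mean and SD (n = 4) as a bar. The groups are apart for Snhg14 (81.9 to 102 against 57.2 to 65.7 CPM) and overlap for the other 6 genes.

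Ndn encodes necdin, a protein of the MAGE family found in postmitotic neurons. Its level was 102, 112, 156 and 95.9 CPM in GF-ND mice 9, 10, 11 and 12 and 137, 144, 130 and 134 CPM in GF-HFD mice 13, 15, 16 and 19. Mouse 11 was the highest of all 8, and the other 3 GF-ND mice were below every GF-HFD mouse. Over all mice the log2 fold change was 0.23 (SE 0.14). Without mouse 11 it was 0.40 (SE 0.07) and the groups no longer overlapped. Without mice 11 and 19 together it was 0.41 (SE 0.08). The part of lens tissue in the value of mouse 11 was not tested.

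Mkrn3, a makorin ring finger protein known as a brake on the onset of puberty, was low and even. It measured 9.84, 7.98, 8.94 and 8.71 CPM in GF-ND and 9.89, 9.59, 9.43 and 8.42 CPM in GF-HFD. The ranges overlapped almost wholly, with a log2 fold change of 0.07 (SE 0.12).

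Magel2 and Peg12 were near the limit of detection. Magel2, a MAGE protein that acts with the ligase TRIM27 in endosomal recycling, had 36, 32, 38 and 26 counts in GF-ND and 28, 28, 16 and 46 in GF-HFD. The GF-HFD mice held both the lowest and the highest count, and the log2 fold change was -0.19 (SE 0.35). Without GF-HFD mouse 16 its sign turned, at 0.02 (SE 0.32). Peg12, a mouse relative of the FRAT proteins that bind the kinase GSK3, had 12, 4, 8 and 6 counts in GF-ND and 14, 6, 26 and 16 in GF-HFD. Its groups overlapped through mouse 15, and the log2 fold change was 0.995 (SE 0.54), or 1.26 (SE 0.51) without that mouse, when the groups no longer overlapped. A difference of this size was not separable from the spread at this depth.

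Of the 7 genes, 2 had a negative log2 fold change and 5 a positive one, but with plain library totals as the scale Ube3a and Snrpn turned to -0.01 each and 4 of the 7 were negative. Groups that did not overlap were seen for 1 of the 7 (Snhg14), where 1298 of all 26900 genes (4.83%) had them, 682 of them lower (2.54%) and 616 higher (2.29%). Since this contrast chose the set, nothing is read from these counts.

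Per kilobase of exon, the 7 genes spanned a range from Snrpn to Peg12. Over the 8 retinas Snrpn stood at 51.5 ± 4.49 CPM per kilobase (SD, n = 8), Ndn at 34.2 ± 5.69 and Ube3a at 6.89 ± 0.395. Mkrn3 at 3.57 ± 0.274 and Snhg14 at 2.87 ± 0.621 came next. Magel2 at 0.161 ± 0.0469 and Peg12 at 0.103 ± 0.0624 were last. Magel2 and Peg12 did not differ beyond their spread. Mkrn3 and Snhg14 did not in GF-ND, where the values were 3.48 ± 0.301 and 3.41 ± 0.345 (SD, n = 4), whereas in GF-HFD Snhg14 was below Mkrn3 by more than the spread, at 2.34 ± 0.135 against 3.66 ± 0.251.

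The place of Snhg14 in this order depends on the length used. All its exons together span 26.1 kilobases and its longest transcript 6.86 kilobases. Per kilobase of longest transcript, Snhg14 stood at 10.9 ± 2.36 and Ube3a at 14.4 ± 0.827 CPM, so that Snhg14 was above Mkrn3.

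The stretch around the 7 genes was then read by position. From Nipa1 to Peg12 the annotation held 310 genes in the tables, of which 51 were tested. With the 7 genes left out, 35 of 44 had a negative log2 fold change. At an unadjusted p under 0.05, 15 of the 44 were lower and 0 higher, beside 4.53% of all genes lower. The genes were then split into coding and noncoding and at the model Gm44742, just before Ube3a. That split was chosen after the values were seen.

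Before Ube3a, none of the 7 coding genes and none of the 7 noncoding models was at an unadjusted p under 0.05 in either direction, though 6 of the 7 noncoding models had a negative log2 fold change, with a median of -0.37. These coding genes are not imprinted in most tissues, apart from Atp10a, whose imprinting varies. Herc2, a giant ubiquitin ligase that binds UBE3A, measured 324 ± 25.3 CPM in GF-ND and 315 ± 14.3 CPM in GF-HFD (SD, n = 4), or -0.04 (SE 0.08) as log2 fold change. Atp10a, a phospholipid flippase, had 0.22 (SE 0.25) and Nipa1, a magnesium transporter, 0.15 (SE 0.14). Of the 22 symbols listed as neighbours of the 7 genes, 17 were matched in the tables and 14 tested, and 2 of the 14 were lower at that p, both noncoding and both described with the stretch from Gm44742 to Ndn. None of the 14 was higher at that p, but 5 were without GF-ND mouse 11 and 4 without mice 11 and 19 together. Over all genes, 3178 of 26338 and 2445 of 25720 were higher at that p in the same fits. The coding neighbours Nipa2, Cyfip1, Tubgcp5, Gabra5 and Gabrg3 had log2 fold changes of 0.06 (SE 0.15), 0.04 (SE 0.12), -0.04 (SE 0.09), -0.10 (SE 0.32) and -0.02 (SE 0.24). Oca2, a melanosome gene, had -0.13 (SE 1.26), with 756 of its counts in GF-ND mouse 11. Of the noncoding neighbours, A230056P14Rik had 0.04 (SE 0.13) and A230006K03Rik -0.88 (SE 0.54).

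From Gm44742 to Ndn most noncoding models were negative. Of 29 tested, Snhg14 left out, 24 had a negative log2 fold change, 14 were lower at an unadjusted p under 0.05 and 0 were higher. The share of all genes that are not protein-coding and were lower at this p was 6.26%. In 9 of the 29 the groups did not overlap, all lower. Over all genes 2.54% had groups apart and lower, and over the TEC, antisense, long intergenic and processed transcript classes 4.52%. The smallest adjusted p among the 29 was 0.649 in edgeR, so none passed over all genes. DESeq2 passed A230057D06Rik and A330076H08Rik, and limma-voom none. In edgeR without GF-ND mouse 11, 5 of them passed (9330162G02Rik, A230103L15Rik, A230057D06Rik, A330076H08Rik and Gm3257), with a smallest adjusted p of 0.0133, and 3 without mice 11 and 19 together. The count of 14 rested in part on GF-ND mouse 10, without which 8 of 25 were lower at this p, and without GF-ND mouse 11 it was 15.

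A330076H08Rik, a noncoding transcript at chr7:61930137-61982358 on the minus strand, had the smallest p of the stretch. It measured 23.6, 26.2, 17.7 and 23.6 CPM in GF-ND and 14.04, 12.8, 11.4 and 11.1 CPM in GF-HFD. The groups did not overlap, and mouse 11 was the lowest of GF-ND. Its log2 fold change was -0.88 (SE 0.14). A230057D06Rik, a long intergenic noncoding RNA just before it at chr7:61704519-61928690, had 37.1, 61.3, 23.2 and 43.995 CPM in GF-ND and 20.4, 21.7, 20.4 and 16.8 CPM in GF-HFD. The groups did not overlap, though mouse 11 lay close above the GF-HFD values. Its log2 fold change was -1.06 (SE 0.24).

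Beside Ube3a, 9330162G02Rik lies on the opposite strand at the start of the gene, at chr7:59223847-59254788, and shares 1796 exon bases with it. It measured 20.5, 23.5, 13.4 and 21.6 CPM in GF-ND and 13.9, 12.9, 9.57 and 12.6 CPM in GF-HFD, overlapping through mouse 11 alone, with a log2 fold change of -0.69 (SE 0.18). A230103L15Rik, at chr7:59327318-59331189 within Snhg14, had -1.45 (SE 0.38) and also overlapped through mouse 11. Gm3257, a pseudogene at chr7:61938237-61938911 inside A330076H08Rik on the other strand, had -0.94 (SE 0.25) with groups apart. Gm9801 and Gm44829, both with groups apart, had -0.59 (SE 0.22) and -0.94 (SE 0.30).

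Many of the models had few counts. With at least 100 counts over the 8 libraries, a limit set after the values were seen, there were 17, with 15 lower, 11 of them at an unadjusted p under 0.05, and a median log2 fold change of -0.94. Over the TEC, antisense, long intergenic and processed transcript classes 7.94% of all genes were lower at that p, and 15.0% of those with at least 1000 counts. All 10 tested models of the GENCODE class TEC, which awaits experimental evidence, in this stretch were lower, 8 of them at that p. Of all tested TEC models, 80.7% were negative and 9.42% lower at that p. The snoRNA Gm24983 had 0, 10, 1 and 3 counts in GF-ND and 0 in each GF-HFD library. Its total passed the limit of 10 for testing, but the counts are too few for its fold change to be read. Of the 29 models, 8 lay inside the span that RefSeq gives to Snhg14, with 7 lower, and 21 lay outside it, of which 9 were lower at an unadjusted p under 0.05. Models on the minus strand within the span can hold reads of Snhg14 itself. The same holds for models on the plus strand if the counting ignored strand.

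**Figure D2:**
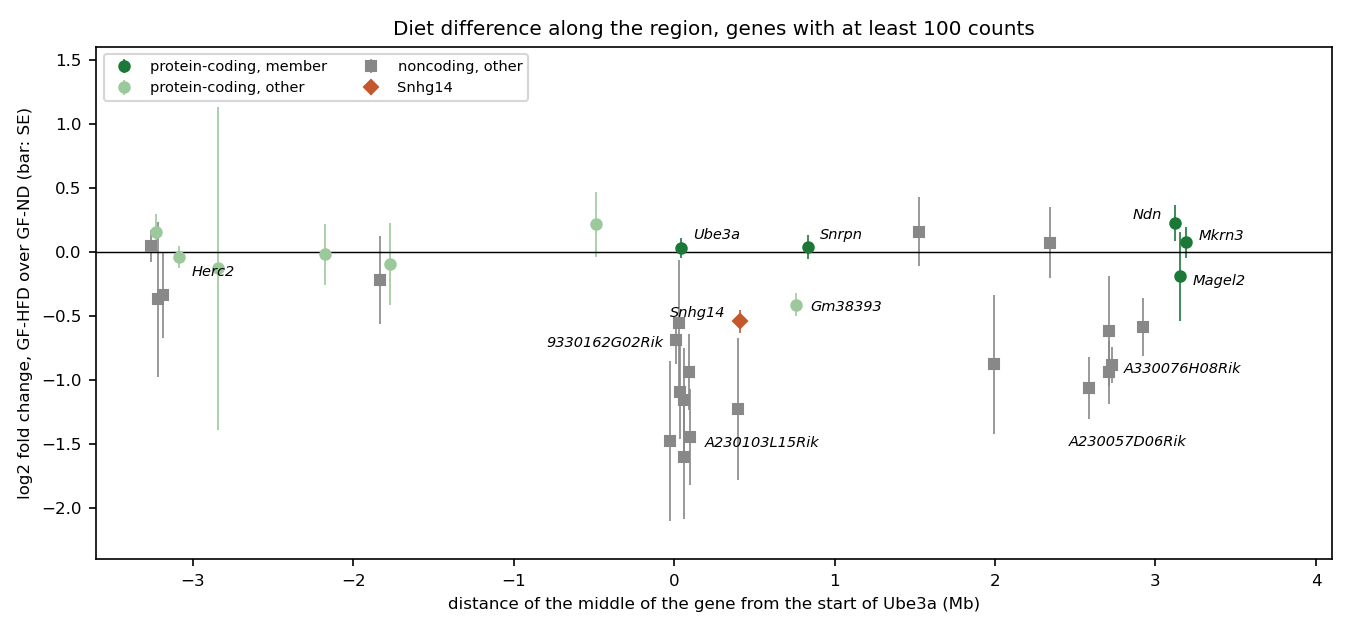
Diet difference as log2 fold change with its SE (y axis, negative where GF-HFD is lower) for the reported genes of the stretch with at least 100 counts, by the distance of the middle of each gene from the start of Ube3a in megabases (x axis). Green circles are coding genes, grey squares noncoding models and the orange diamond Snhg14. The coding genes lie around 0 apart from Gm38393 at -0.41, while 15 of the 17 noncoding models from Gm44742 on lie below 0.

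**Figure D3:**
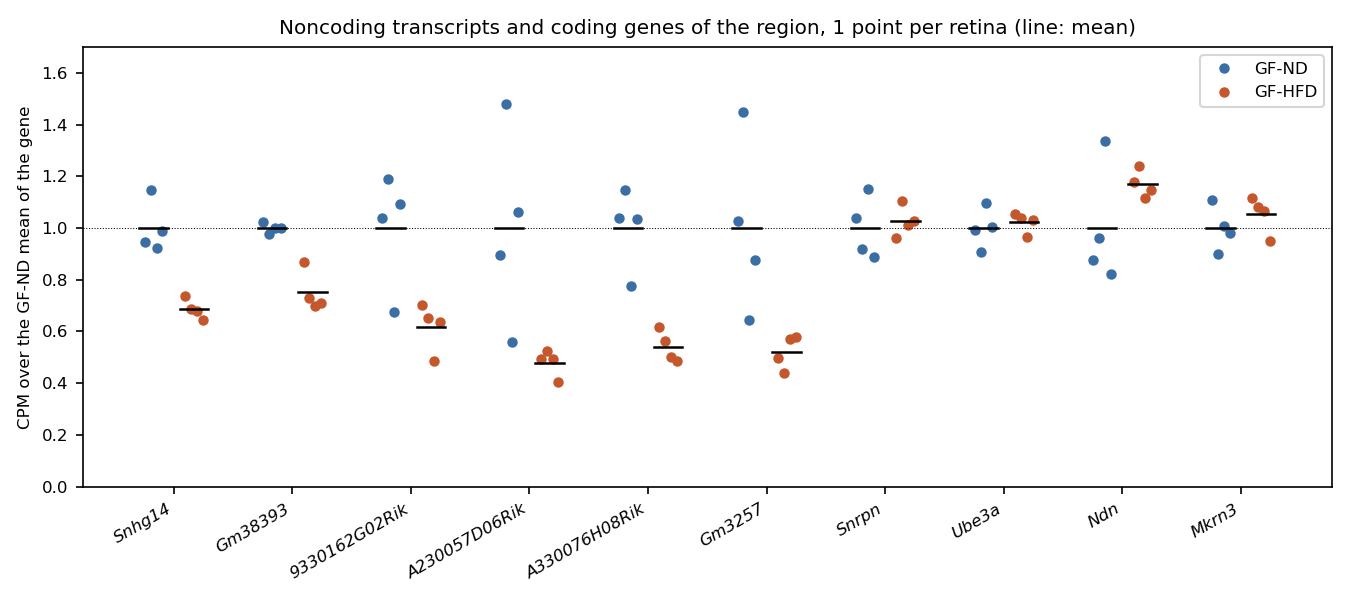
CPM divided by the GF-ND mean of each gene (y axis, from 0) in 10 genes of the stretch, with 1 point for each retina and a line at each group mean. The genes were picked after their values were seen. Snhg14, Gm38393, A230057D06Rik, A330076H08Rik and Gm3257 have all GF-HFD points below all GF-ND points, while 9330162G02Rik overlaps through GF-ND mouse 11, and Snrpn, Ube3a, Ndn and Mkrn3 overlap.

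The lean of noncoding models was not limited to this stretch. Over all tested genes the median log2 fold change was -0.03, and it was 0.03 for protein-coding genes. For TEC models it was -0.50, for antisense transcripts -0.32, and for long intergenic noncoding RNAs and processed transcripts -0.22 each. Of 1858 TEC models, 9.42% were lower at an unadjusted p under 0.05, and of 1536 long intergenic noncoding RNAs 6.05%. Among the 633 genes of these 4 classes with at least 1000 counts, as Snhg14 has, 80.7% had a negative log2 fold change and 15.0% were lower at that p.

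The TEC models outside the stretch took 0.273%, 0.292%, 0.167% and 0.311% of the counts in GF-ND mice 9, 10, 11 and 12 and 0.228%, 0.180%, 0.181% and 0.194% in GF-HFD mice 13, 15, 16 and 19. Here GF-ND mouse 11 was the lowest of all 8 retinas, below every GF-HFD mouse. Snhg14 in that mouse was at 81.9 CPM, and the highest GF-HFD value was 65.7 CPM. Snhg14 itself is classed as a processed transcript. In the same order of mice, that class, Snhg14 included, took 0.257%, 0.298%, 0.228% and 0.279% of the counts in GF-ND. In GF-HFD it took 0.225%, 0.205%, 0.223% and 0.218%, and the groups did not overlap. The shares of antisense transcripts and of long intergenic noncoding RNAs overlapped through mouse 11. The part of these library-wide shares in the Snhg14 difference was not tested.

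**Figure D4:**
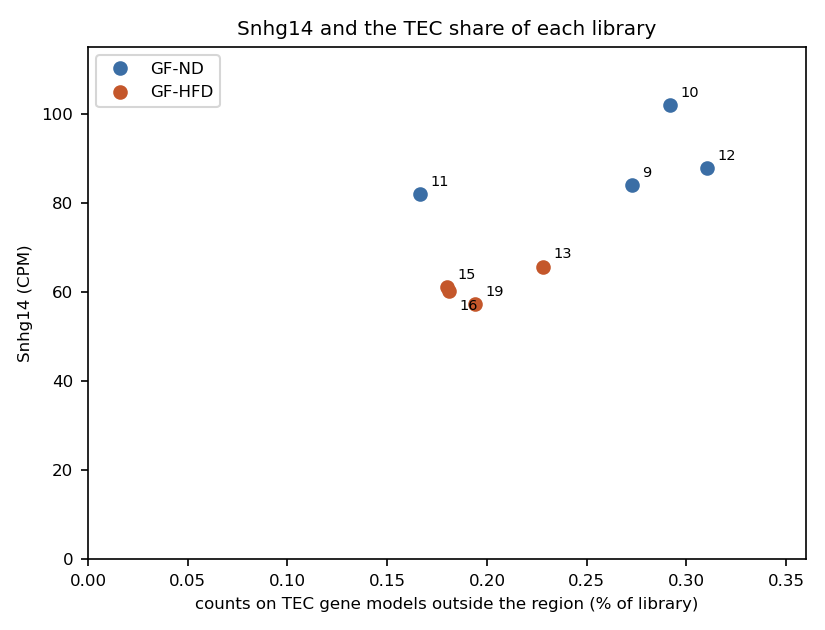
Snhg14 in CPM (y axis, from 0) against the percentage of counts on TEC models outside the stretch (x axis, from 0), with 1 point for each retina and the mouse number beside it. Mouse 11 of GF-ND has the lowest TEC share (0.167%) and 81.9 CPM of Snhg14, above all 4 GF-HFD retinas.

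Markers of neurons were mostly positive in the same comparison. Of all tested protein-coding genes, 44.1% had a negative log2 fold change, with a median of 0.03. The part of neuron content in the Snhg14 difference was not tested. Of 15 pan-neuronal genes 14 had a positive log2 fold change (12 with library totals as the scale) and 1 passed an unadjusted p under 0.05, higher. Their mean log2 CPM ran from 7.43 to 7.64 in GF-ND and from 7.56 to 7.72 in GF-HFD. Amacrine and ganglion cell markers were higher in 13 of 15, with 1 at that p, and bipolar markers in 7 of 10, with 1 lower and 1 higher at that p. Rod markers were higher in 14 of 14, with 2 at that p.

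The genes whose log2 CPM was most like that of Snhg14 over the 8 retinas, among 15279 genes with a mean of at least 1 CPM, were Gm45212 (Pearson r = 0.98), A330076H08Rik (0.97), Cttnbp2 (0.97), Gm15927 (0.97) and Gm16386 (0.97). The 8 points share their scaling and the split by diet, so genes that differ by diet rank high whatever else they do. A330076H08Rik ranked second and lies in the same stretch. Gm45212, a TEC model at chr7:64284808-64288210, lies beyond Peg12, Gm15927 lies far off on chromosome 7, Cttnbp2, a regulator of dendritic spines, on chromosome 6 and Gm16386 on chromosome 17. Ube3a (-0.41), Snrpn (-0.38) and Ndn (-0.58) did not run with Snhg14.

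Genes imprinted elsewhere were mixed. Of 21 other paternally expressed genes 11 were lower and 10 higher by sign (14 and 7 with library totals as the scale), with 3 lower and 1 higher at an unadjusted p under 0.05. Airn, the antisense transcript of Igf2r, had the smallest p and a log2 fold change of -0.55 (SE 0.17), Peg3, a zinc finger gene, had -0.33 (SE 0.16) and the noncoding Peg13 0.17 (SE 0.08). Of 27 maternally expressed genes 18 were lower by sign, 3 of them at that p and 0 higher. Over all genes tested 53.7% were lower by sign, and 4.53% were lower and 2.85% higher at that p. Meg3, a long noncoding RNA and snoRNA host of another imprinted cluster, measured 884 ± 396 CPM in GF-ND and 427 ± 96.6 CPM in GF-HFD (SD, n = 4), -1.05 (SE 0.27), and the small RNA effector Ago2 had -0.06 (SE 0.09). The median log2 fold changes were -0.03 and -0.10.

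Other snoRNA host genes and nuclear long noncoding RNAs gave larger counts of lower genes. Over all genes 4.53% were lower at an unadjusted p under 0.05. In the 4 noncoding classes above, among genes with at least 1000 counts, 80.7% were negative and 15.0% lower at that p. Of 20 other snoRNA host genes 18 were lower by sign, with 4 lower and 0 higher at an unadjusted p under 0.05 and a median of -0.23. Taf1d, a factor of ribosomal RNA transcription, had -0.55 (SE 0.11) and Snhg11 -0.998 (SE 0.27), both classed as protein-coding. Of 15 nuclear long noncoding RNAs 12 were lower by sign, with 8 lower and 0 higher at that p and a median of -0.55. Malat1, the most abundant, measured 1781 ± 670 and 1192 ± 433 CPM (SD, n = 4), which is -0.58 (SE 0.33) on the log2 scale. The neuronal transcript Cdr1os had -0.94 (SE 0.20). Meg3 and Rian are on both lists. They are also on the list of maternally expressed genes, as is the nuclear Mirg. The nuclear Airn, Kcnq1ot1 and Peg13 are on that of paternally expressed genes, so the counts of these lists are not independent. None of these genes passed an adjusted p under 0.05, and the lowest was 0.649.

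Calls among partners of the encoded proteins were counted beside all genes tested. Of all genes 4.53% were lower and 2.85% higher at an unadjusted p under 0.05. Of 14 partners and substrates of UBE3A 7 were lower and 7 higher by sign and 0 were at an unadjusted p under 0.05. Of 25 other HECT ligases, the enzyme class of UBE3A, 2 were higher at that p and 0 lower. Ube3b had 0.28 (SE 0.08), Nedd4 0.13 (SE 0.12) and Herc3 0.14 (SE 0.11). Of 23 genes of the Sm core and the SMN complex, which works with SmN, 1 was higher at that p, namely Snrpd1 at 0.25 (SE 0.09), while Snrpb, the somatic counterpart of Snrpn, had 0.17 (SE 0.09) and Snrnp70 -0.52 (SE 0.23).

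The remaining lists are set beside the same shares of all genes, 4.53% lower and 2.85% higher. Of 20 genes of the MAGE family and the MAGEL2 complex 0 were at an unadjusted p under 0.05. Maged1 had 0.06 (SE 0.12), the deubiquitinase Usp7 -0.01 (SE 0.08) and Nucb2 0.19 (SE 0.09). Of 9 makorin and FRAT relatives 8 were higher by sign and 1 at that p, the kinase gene Gsk3a at 0.18 (SE 0.08), with Gsk3b at 0.18 (SE 0.10) and Ctnnb1, which encodes beta-catenin, at 0.14 (SE 0.13). Of 21 regulators of imprinted genes 1 was lower at that p, the zinc finger gene Zfp57, which guards imprints in the embryo, at -0.63 (SE 0.21). Zfp445, which shares that role, had -0.12 (SE 0.13) and the demethylase Tet3 0.06 (SE 0.14).

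GF-ND mouse 11 held back many of these counts, and those over all genes too. Without it, 3178 of all 26338 genes tested were higher at an unadjusted p under 0.05 and 2890 lower. With all mice these were 766 and 1219 of 26900. Without mouse 11, at that p, 5 other paternally expressed, 4 maternally expressed and 5 UBE3A partner genes were higher. So were 4 HECT ligases, 3 MAGE genes and 5 makorin and FRAT relatives. Without it 5 regulators and 8 snoRNA hosts were lower. The nuclear long noncoding RNAs stayed at 7 to 9 lower when each mouse was left out in turn. The 3 lower paternally expressed genes became 1 without GF-ND mouse 10 or 12. The 2 higher HECT ligases became 1 without mouse 9, 10, 13, 15, 16 or 19, and also with limma-voom, RLE factors, library totals, no filter on low counts or lens genes taken out before scaling. The 1 higher makorin or FRAT relative became 0 without mouse 12, 13, 15 or 16, with library totals or with no filter.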

How the data were processed

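Retina RNA of 8 germ-free mice was measured as paired reads of 100 bp (TruSeq libraries). The deposited values are raw counts per gene symbol. Per the submitters' processing notes and the study's methods, the authors aligned the reads with STAR 2.4.2 to GRCm38 and counted them with featureCounts (Subread 1.4.6-p1) on GENCODE vM23, 1 table for each library. The filter on low counts that the study applied before its own comparison is not in the deposited tables, which also list genes at 0. Low counts were mostly even (1.91 to 2.36 even values for each odd one from 1 to 12), as when both reads of a pair are counted. The strand setting was not given in the sources used here.

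All genes whose 8 counts summed to 10 or more entered the quasi-likelihood test of edgeR 4.0.16 (R 4.3.3), with TMM factors and p-values adjusted by Benjamini-Hochberg over all genes tested. The SE is the log2 fold change divided by the square root of F. DESeq2 1.42.0, limma 3.58.1 (voom), other scalings and filters and each mouse left out were alternatives. The fit was tested on simulated data. A p-value weighs the diet difference against the spread between mice, 4 in each group, with that spread estimated in part from all genes together. Gene positions and classes came from GENCODE vM21, which held 53528 of the 55213 symbols, and promoters from RefSeq. The 7 genes and all gene lists were chosen with earlier results of these data known. Genes named are the 7 and their tested neighbours, and for each list the 2 with the highest mean CPM and the one with the smallest p. Also named are the 5 genes most like Snhg14 and genes whose exons overlap the 7. 9330162G02Rik, A230103L15Rik, Gm3257, Gm9801, Gm44829, Gm44742, Gm24966 and Gm24983 were chosen after their values were seen where that rule did not name them. Some genes that this rule names are not reported here.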

Additional observations from a re-analysis of the deposited data

Results flagged for a closer look

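Of 50 groups of 4 retinas examined over 25 genes, 3 held a mouse far from the other 3 by Dixon's ratio of the gap to the range, above the 95% critical value for 4 samples. Chance marks about 1 group in 20. Oca2, a melanosome gene before Ube3a, was at 18.0 CPM in GF-ND mouse 11 against 0.265 to 1.10 in the other GF-ND mice (ratio 0.953). Gabrg3, a GABA-A receptor subunit beside it, was at 41.9 CPM in the same mouse against 17.8 to 21.8 (ratio 0.834). Mouse 11 is also the retina with 7.55% of its counts on lens genes. The pseudogene Gm10297 was at 1.38 CPM in GF-HFD mouse 13 against 1.28 in the other GF-HFD mice (ratio 0.948), a gap of few counts. None of the 7 imprinted genes was among them.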

How the results depend on the processing

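The log2 fold change of Snhg14 stayed negative under all 16 alternatives, from -0.59 to -0.48, and none of 112 recomputed fold changes of the 7 genes moved by more than the spread between mice (1 SD). With library totals in place of TMM, 4 of the 7 were negative (main value 2), and with 1 mouse left out 1 to 4 were. At an unadjusted p under 0.05, 1 to 2 of the 7 passed with 1 mouse left out, and 1 to 2 had groups apart. Without mice 11 and 19 together both counts were 2. The noncoding models from Gm44742 to Ndn lower at that p numbered 8 to 15 with 1 mouse left out (main value 14). Over all genes, 53 passed the adjusted threshold in DESeq2, 55 without mice 11 and 19 and 0 to 421 with 1 mouse left out. The count higher at an unadjusted p under 0.05 was 416 with library totals, 2445 without both mice and 432 to 3178 with 1 left out. The count lower was 2508 without both mice and 782 to 2890 with 1 left out. The cause was not tested. Of 352 list counts, 76 moved by over 1.5 times. No paired analysis was possible because the groups share no mouse numbers.

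Limits: Magel2 and Peg12 rest on 250 and 92 counts over 8 libraries, and their SE is wide. Exons shared between genes on both strands, and snoRNA copies of identical sequence, limit Snhg14, Ube3a, Snrpn and the models around them.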
